A study of Mus musculus with 6 samples.

Results

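Genes for 10 chromatin regulators that mouse genetics ties to closure of the neural tube were followed in posterior tissue of E9.5 mouse embryos (embryonic day 9.5). They are Cecr2, Brd2, Jarid2, Kat2a, Ep300, Crebbp, Smarca4, Smarcc1, Arid1a and Cited2. A gene was taken where the probe annotation of the array carried its symbol, and this gave 11 probes, since Smarca4 had a pair and the other 9 genes had 1 each. The 11 probes are part of 34967 transcript probes on the array, and the 10 genes are part of 14315 genes that could be tested. A further probe whose annotation joined Crebbp with Ly6e was left unnamed and is not counted.

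RNA came from 3 Splotch null and 3 wild-type samples, each on its own one-colour CodeLink bioarray, an array whose spots glow in proportion to bound RNA. Both genotypes had the strain label LMBc, and in both the embryo was cut below the forelimb and total RNA of the part behind the cut was amplified. Splotch is a mutation of Pax3, a transcription factor with a paired box that acts in the dorsal spinal cord, somites and neural crest. The allele, the number of embryos behind an array and the meaning of LMBc are not given in the sources used here, so p-values measure only the spread between these samples, which may be technical.

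The arrays differed in brightness, with median background-subtracted intensities of 86.4, 86.7 and 121.1 on the Splotch null arrays against 116.3, 99.7 and 84.3 on the wild-type arrays. A probe counted as above background where the scanner flagged its spot good or saturated, and 66.1% to 71.7% of probes were. One label field named the anterior neural tube and another the posterior. Of 12 caudal marker genes 11 were above background on all 6 arrays. Of 8 forebrain genes 5 were also above it on all 6 arrays, and 3, among them Otx2 and Emx1, on none. Pax3 RNA was present in both genotypes, its brighter probe lying between 10.52 and 10.72 on the log2 scale in Splotch null and between 10.02 and 10.83 in wild type. Splotch null 2 stood apart, with a mean log2 intensity of 11.47 over 9 tested yolk sac genes, where the other arrays had 7.18 to 8.34.

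Chromatin regulators open or close DNA to transcription. Some, like the ATPase Smarca4, slide or evict nucleosomes, some add acetyl groups to histones, some bind those acetyl groups through bromodomains, and Polycomb proteins add repressive methyl groups. Mice that lack one of these 10 genes, or carry a damaged copy, can fail to close the neural tube, most often in the head. The spinal closure defects of Splotch embryos arise from loss of Pax3, and the comparison here asks whether levels of their RNA were different in Splotch null tissue.

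Promoter sequences of 3 members are shown: the array pattern of Cited2 varied most, and those of Brd2 and Smarcc1 were the closest pair. Any link between promoter sequence and array pattern was not tested. Each runs 5′ to 3′ on the strand of the gene, from 250 bases before to 50 bases after the start of transcription. Capitals mark CCGGAAG, a core bound by ETS factors, and ACGTG, the core bound by the hypoxia factor HIF1, on either strand. The sequences are from RefSeq, build GRCm38.p6.
Cited2, chr10:17722978-17723277, + strand: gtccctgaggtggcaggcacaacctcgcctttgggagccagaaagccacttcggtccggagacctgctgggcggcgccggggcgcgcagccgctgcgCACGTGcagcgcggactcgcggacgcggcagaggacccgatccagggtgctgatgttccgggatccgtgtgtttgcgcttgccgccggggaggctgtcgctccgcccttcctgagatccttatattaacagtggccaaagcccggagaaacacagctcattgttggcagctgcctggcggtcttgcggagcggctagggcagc
Brd2, chr17:34122558-34122857, - strand: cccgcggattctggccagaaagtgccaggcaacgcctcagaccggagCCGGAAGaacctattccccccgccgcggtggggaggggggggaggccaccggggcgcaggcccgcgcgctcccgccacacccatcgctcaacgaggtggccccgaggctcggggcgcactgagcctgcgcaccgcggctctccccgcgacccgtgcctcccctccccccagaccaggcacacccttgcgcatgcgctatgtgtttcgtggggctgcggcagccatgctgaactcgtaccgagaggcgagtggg
Smarcc1, chr9:110131774-110132073, + strand: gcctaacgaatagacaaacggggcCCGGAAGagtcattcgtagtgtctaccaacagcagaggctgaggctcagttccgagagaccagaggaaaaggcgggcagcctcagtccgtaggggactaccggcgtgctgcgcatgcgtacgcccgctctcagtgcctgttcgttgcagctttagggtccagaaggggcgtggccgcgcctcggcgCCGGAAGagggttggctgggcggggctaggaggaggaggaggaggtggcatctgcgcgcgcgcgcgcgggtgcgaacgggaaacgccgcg
The capitals of Cited2 are a single CACGTG, which reads as ACGTG on both strands and so counts as 2 overlapping matches. This Brd2 promoter holds CCGGAAG once, and the other 2 of its 3 promoters in the table do not hold it. The single Smarcc1 promoter holds it at 2 places. The table held 13 promoters for 9 of the members. Of these 13, CCGGAAG was found in 2, those just printed, where 8.86% of 32851 promoters of the same length held it. ACGTG was found in 2 of the 13, in Cited2 and in 1 of the 2 Jarid2 promoters, against 19.6% of all promoters. The palindrome TGACGTCA, bound by CREB, the factor that Crebbp is named for, was found in 0 of the 13 and in 1.79% of all. CCAAT stood in 2 of the 13 and in 37.4% of all, and TATAAA in 1 and in 13.6%. The motifs searched do not overlap each other in the printed sequences, and a match is no evidence that a factor binds. Member promoters were rich in CpG, the base pair step that marks promoters of broadly used genes, with 14 to 49 per 300 bases and a median of 29, against a median of 7 over all promoters.

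All 10 genes were measured, and 9 of them were above background on every array. Ep300 was above it on 2 of 3 Splotch null and on 3 of 3 wild-type arrays. With limma, 0 of the 11 probes differed between the genotypes at an adjusted p of 0.05, and 0 had an unadjusted p under 0.05. Over all 14315 genes, 0 passed the adjusted threshold, or 0.0%, and 204 had an unadjusted p under 0.05, or 1.43%, with 0.999% higher and 0.426% lower in Splotch null. The adjusted p of each member was 0.9998. A 95% interval within a 2-fold change in either direction was found for 9 of the 10 genes, and an interval within 1.5-fold for 8. The matching shares of all genes are not given here. The median absolute log2 difference was 0.116 for the members, against 0.0926 for all genes. The intervals depend on the offset added to intensities before log2. At a lower offset of 10, the standard error of Cecr2 was 0.17 in place of 0.14. Interval counts at that offset are not given here. Of the 10, 8 were lower and 2 higher in Splotch null, with a median log2 difference of -0.071, where 45.0% of all genes were lower and their median was 0.017. The count of lower members depended most on Splotch null 2, without which it was 5 of 10 and the median difference 0.00047. The count was 6 without wild type 2, and 7 or 8 without any other single array.

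**Figure D1:**
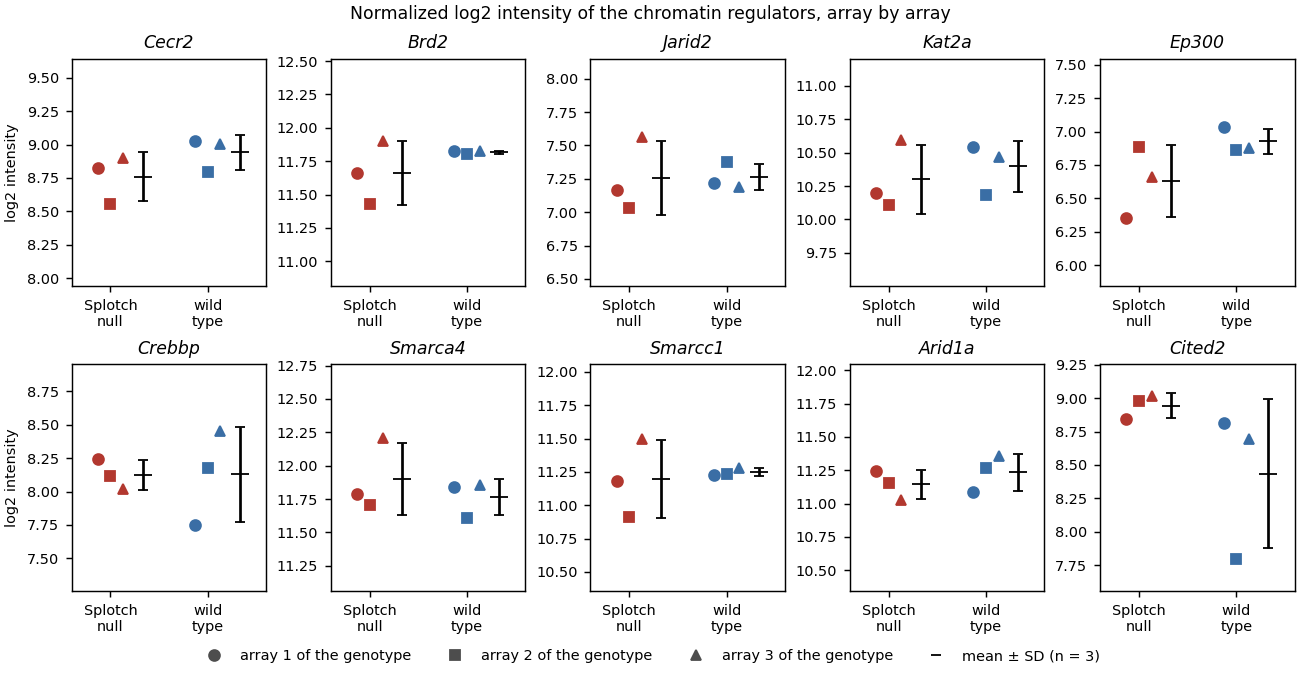
Normalized log2 intensity of each member by its brighter probe, with Splotch null arrays (red, left) and wild-type arrays (blue, right) as single points, and the mean ± SD of 3 arrays as a bar. Every panel spans the same height on the log2 scale and none starts at 0. The genotypes overlap in 9 of the 10 panels, and Cited2 has 1 wild-type point far below the rest, at 7.79.

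The nucleosome remodellers come first. Smarca4, also called BRG1, is the ATPase of the BAF complex, which moves and ejects nucleosomes. Its brighter probe had raw intensities of 3222, 3242 and 5153 in Splotch null and 3834, 2972 and 3448 in wild type. After normalization the log2 intensities were 11.79, 11.70 and 12.21 in Splotch null, against 11.84, 11.61 and 11.85 in wild type. Splotch null 3 lay above all other arrays and the genotypes overlapped. The means were 11.90 ± 0.27 in Splotch null and 11.77 ± 0.14 in wild type (SD, n = 3 each), a log2 difference of 0.14 with a 95% interval from -0.26 to 0.53. Without Splotch null 3 the difference was -0.020. The second Smarca4 probe was dim and lay above background on 2 of 3 arrays in each genotype. It had 6.61, 6.39 and 7.14 in Splotch null and 7.10, 6.78 and 6.42 in wild type. Its difference of -0.054 (SE 0.24) was 0.11 without Splotch null 2 and also to 0.11 without wild type 1. Both Smarca4 probes were highest on Splotch null 3 and disagreed on the wild-type arrays.

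Smarcc1, or BAF155, is a scaffold subunit that holds the BAF complex together. It had log2 intensities of 11.18, 10.91 and 11.49 in Splotch null, from raw values of 2112, 1811 and 3179. In wild type it had 11.23, 11.24 and 11.28, from raw values of 2570, 2280 and 2275. The wild-type values lay close together, and the Splotch null values fell on both sides of them. The difference was -0.050 (SE 0.16, 95% interval -0.44 to 0.34), and it was 0.092 without Splotch null 2. Arid1a, the large BAF subunit that binds DNA, had 11.24, 11.16 and 11.03 in Splotch null, against 11.09, 11.27 and 11.36 in wild type, and the genotypes overlapped. It varied least of the 10 genes, with an SD of 0.12 over all 6 arrays, and differed by -0.093 (SE 0.13, interval -0.40 to 0.21). Leaving out Splotch null 3 gave -0.035 and leaving out Splotch null 1 gave -0.14, while it was -0.032 without wild type 3 and -0.17 without wild type 1. Arid1a was lowest on Splotch null 3, the array on which Smarca4 and Smarcc1 were highest.

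Cecr2 is a bromodomain protein that pairs with the ISWI ATPase Smarca1, and its loss in mice is a known cause of exencephaly, an open brain. It had 8.83, 8.55 and 8.90 in Splotch null and 9.03, 8.79 and 9.00 in wild type, from raw intensities of 292 to 524 and 389 to 556. Splotch null 2 was the lowest array, and the other 2 null arrays fell between the wild-type values. The difference was -0.18 (SE 0.14, interval -0.52 to 0.15). An exact permutation test, two-sided, gave p = 0.3, and with 3 arrays per genotype it cannot go below 0.1. It was -0.078 without Splotch null 2.

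The readers and writers of histone acetylation follow. Brd2 is a BET protein, which reads acetylated histones through a pair of bromodomains. It had 11.66, 11.43 and 11.90 in Splotch null and 11.82, 11.80 and 11.82 in wild type. The wild-type arrays were almost level, and Splotch null arrays lay on both sides of them, with an SD of 0.011, against 0.24 in Splotch null. The difference was -0.15 (SE 0.15, interval -0.50 to 0.19), and without Splotch null 2 it was -0.037.

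Kat2a, known as GCN5, is the acetyltransferase of the SAGA and ATAC complexes. It had 10.20, 10.11 and 10.59 in Splotch null and 10.55, 10.18 and 10.47 in wild type. It was highest on Splotch null 3 and wild type 1, and the genotypes overlapped; these are also the 2 arrays with the highest median intensity, and whether brightness has a part in this was not tested. The difference was -0.097 (SE 0.17, interval -0.51 to 0.31). It was -0.24 without Splotch null 3 and -0.0012 without Splotch null 2.

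Ep300 and Crebbp encode p300 and CBP, closely related acetyltransferases that many transcription factors recruit. Ep300 had 6.35, 6.89 and 6.66 in Splotch null, against 7.04, 6.86 and 6.88 in wild type, and the genotypes overlapped. The probe was dim, with raw intensities of 26.7, 60.4 and 63.5 in Splotch null and 96.2, 67.2 and 58.6 in wild type, and it was not above background on Splotch null 1, its lowest array. The mean was 6.63 ± 0.27 in Splotch null and 6.93 ± 0.097 in wild type (SD, n = 3 each). The difference of -0.29 (SE 0.16, interval -0.67 to 0.088) was the largest of the 8 negative ones, and its exact two-sided permutation p was 0.3. Without Splotch null 1 it was -0.15, and without Splotch null 2 it was -0.42, with an unadjusted limma p of 0.038 and an adjusted p of 0.99998. An offset of 50 was added to all intensities; an offset of 10 in its place gave -0.48, and one of 200 gave -0.12.

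Crebbp had 8.24, 8.11 and 8.02 in Splotch null and 7.75, 8.18 and 8.46 in wild type, so the null values lay inside the wild-type range. The means were 8.13 ± 0.11 in Splotch null and 8.13 ± 0.36 in wild type (SD, n = 3 each). The difference was -0.0033 (SE 0.19, interval -0.46 to 0.45), and the leave-one-out values ran from -0.19 without wild type 1 to 0.16 without wild type 3. Wild type 1 was the highest array for Ep300 and the lowest for Crebbp.

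Jarid2 is a cofactor of the Polycomb complex PRC2, which methylates histone H3 to keep genes silent. It had 7.17, 7.03 and 7.56 in Splotch null and 7.22, 7.37 and 7.19 in wild type, from raw intensities of 71.4 to 173 and 82.0 to 118. Splotch null 3 was the highest and Splotch null 2 the lowest array, with all wild-type values in between. The difference was -0.0078 (SE 0.16, interval -0.39 to 0.38), and it was 0.10 without Splotch null 2 and -0.16 without Splotch null 3.

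Cited2 is a small protein that binds p300 and CBP. It competes there with HIF1 and serves AP-2 transcription factors as a coactivator. It showed the largest difference of the 10, and it was the 1 member whose genotypes did not overlap after normalization. Its log2 intensities were 8.84, 8.98 and 9.01 in Splotch null, against 8.82, 7.79 and 8.69 in wild type. The gap between the lowest null and the highest wild-type array was only 0.024, and wild type 2 lay far below the other 5 arrays. On the raw scale the genotypes overlapped, with 361, 417 and 572 in Splotch null and 479, 174 and 308 in wild type. On the normalized scale of the authors' software, the raw intensity over the array median, Cited2 had 4.18, 4.81 and 4.72 in Splotch null and 4.12, 1.75 and 3.66 in wild type. The mean log2 intensity was 8.95 ± 0.091 in Splotch null and 8.43 ± 0.56 in wild type (SD, n = 3 each), a ratio of 1.43. The difference of 0.51 (SE 0.27, interval -0.11 to 1.13) did not pass limma's test, with an unadjusted p of 0.094 and an adjusted p of 0.9998. The exact two-sided permutation p was 0.1, the smallest possible. Of 13766 genes with a value on every array, 5.11% had genotypes without overlap, and 3.22% had this with the null arrays on top. Without wild type 2 the difference was 0.19, and without wild type 1 it was 0.70, with an unadjusted limma p of 0.037 and an adjusted p of 0.9999.

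**Figure D2:**
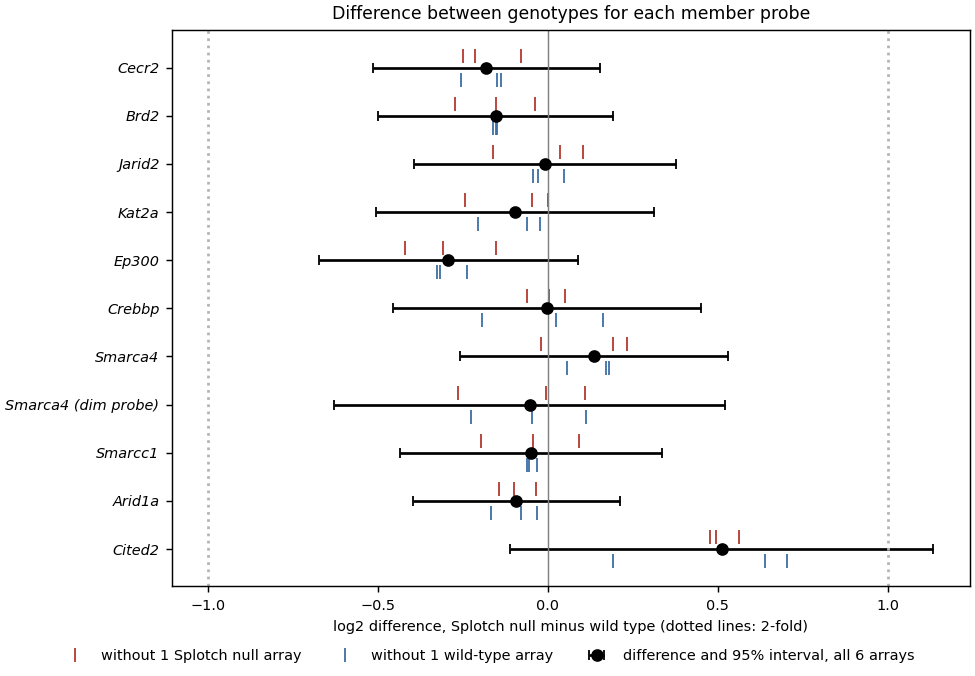
Log2 difference of Splotch null minus wild type for the 11 member probes, with the 95% interval from limma as a bar and the difference without each array in turn as ticks (red above, Splotch null arrays left out; blue below, wild-type arrays left out). Every interval spans 0, and the interval of Cited2 alone reaches beyond a 2-fold change, to 1.13.

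The members were then set against each other by array, each centred on its own mean over the 6 arrays. Of the 10 genes 6 were highest on Splotch null 3, where 24.4% of all genes were highest, and 5 were lowest on Splotch null 2, where 17.7% of all genes were lowest. Cecr2, Brd2, Jarid2, Kat2a and Smarcc1 were the 5 lowest on Splotch null 2, by 0.23 to 0.31 below their own means. The median member deviated by -0.18 on Splotch null 2 and by 0.20 on Splotch null 3, while the median of all genes deviated by 0.032 and -0.0036. Both arrays are of the same genotype. Before normalization Splotch null 3 had the highest median intensity of the 6 arrays, at 121.1, and Splotch null 2 had 86.7. The part of brightness in this pattern was not tested.

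Some marker lists of other cell types also had their extremes on Splotch null 2 and Splotch null 3, and others did not. Of 12 listed genes of visceral endoderm and yolk sac, 9 were tested, and their mean log2 intensity ranged from 7.18 on Splotch null 3 to 11.47 on Splotch null 2, and from 7.76 to 8.34 in wild type. Apoa4, Amn and Cubn of that list were above background on too few arrays. The 8 neural progenitor genes, all tested, ran the other way, with a mean of 8.09 on Splotch null 2 and 9.57 on Splotch null 3, and 8.73 to 9.32 in wild type. The 7 tested genes of primitive red cells had means of 10.51 to 10.78 in Splotch null and 9.69 to 11.15 in wild type. The part of tissue composition in the member values was not tested, and fewer cells of a type cannot be told apart from less RNA per cell.

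**Figure D3:**
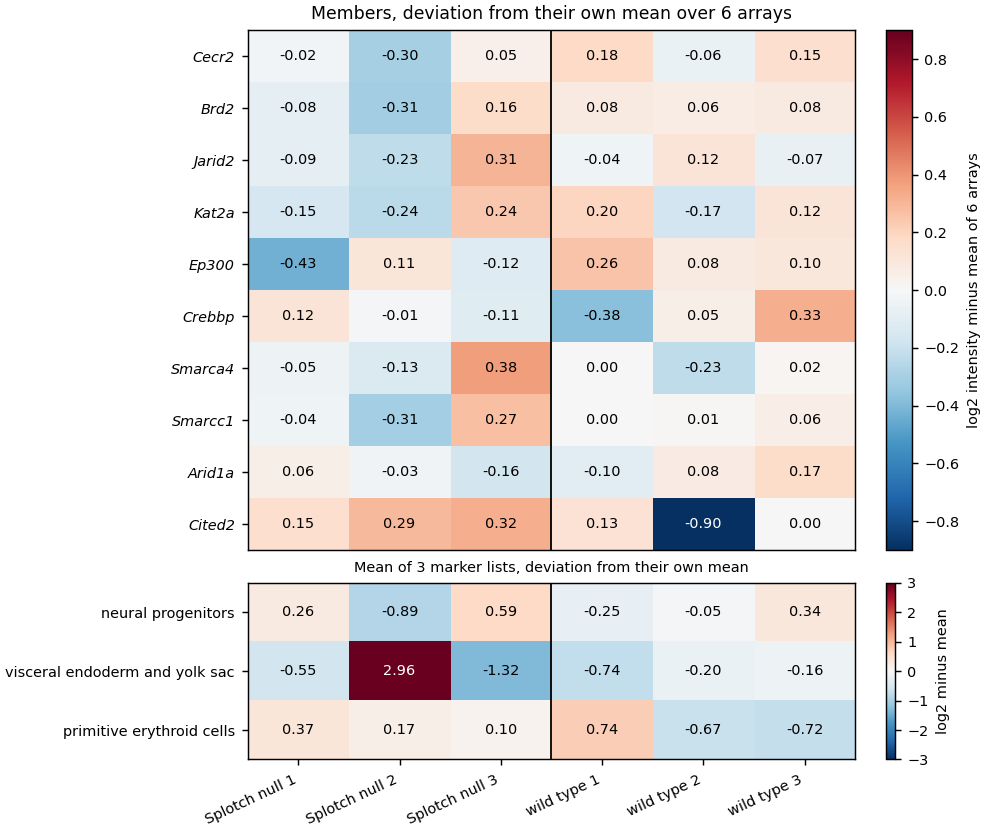
Upper block, log2 intensity of each member minus its own mean over the 6 arrays, with Splotch null arrays left of the line and wild-type arrays right of it. Lower block, the mean of 3 marker lists treated in the same way on a wider colour scale. On Splotch null 2 lie the lowest values of 5 members, and 6 are highest on Splotch null 3, and the deepest single value is that of Cited2 on wild type 2.

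Likeness between members was measured as the root mean square difference of their centred log2 values over the 6 arrays, for 45 pairs. The closest pair was Brd2 and Smarcc1 at 0.063, followed by Jarid2 and Smarcc1 at 0.081 and by Cecr2 and Brd2 at 0.087, with a median of 0.26 over all pairs. The values share the same 6 arrays and their normalization. The member nearest to Cited2 was Smarca4, at 0.34, and both were highest on Splotch null 3 and lowest on wild type 2. Values were centred but not scaled, so a gene that varies much lies far from the others whatever its pattern.

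Cited2 had an SD of 0.45 over the 6 arrays, above that of 92.6% of all genes, while the other 9 members had 0.12 to 0.24 and the median gene 0.20. The 5 genes most like Cited2, among 12560 genes above background on every array, were Lin28a, Rusc1, Cav2, Usp4 and Dcaf12, at root mean square differences of 0.13 to 0.16. Lin28a, the RNA-binding protein that blocks maturation of let-7 microRNAs, had 13.28, 13.21 and 13.39 in Splotch null and 13.19, 12.24 and 13.36 in wild type. Usp4, a ubiquitin-specific protease, had 10.72, 10.54 and 10.99 in Splotch null and 10.53, 9.82 and 10.57 in wild type. Like Cited2, all 5 were lowest on wild type 2. They were chosen for this pattern, and none passed limma's test between genotypes (adjusted p = 0.9998 for each).

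**Figure D4:**
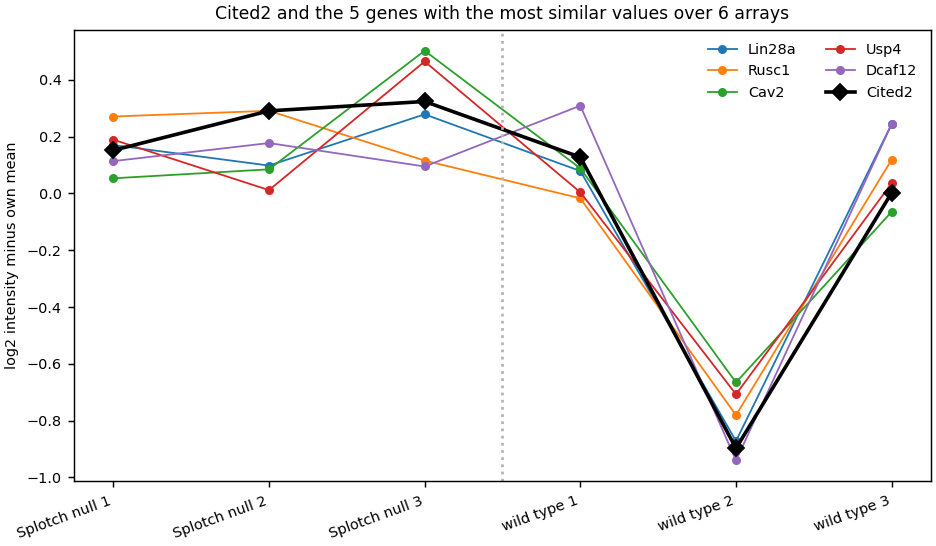
Log2 intensity minus each gene's own mean over the 6 arrays for Cited2 (black) and the 5 genes closest to it, with Splotch null arrays left of the dotted line and wild-type arrays right of it. The lines only join the points of a gene. All 6 genes dip on wild type 2, where Cited2 lies 0.90 below its mean.

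Genes related to the members, through a complex, a protein family, a partner or an opposing function, were taken from 7 lists. These held 100 genes that are not members, of which 87 were tested. Of the 87, 0 had an adjusted p under 0.05 and 2 had an unadjusted p under 0.05, or 2.30%, against 1.43% of all genes. There were 48 higher and 39 lower in Splotch null, with a median log2 difference of 0.010, against 0.017 over all genes.

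The counts of each list below include its members, and the list of deacetylases and co-repressors has none. The BAF subunits were nearly balanced, with 10 of 23 tested genes higher and 13 lower in Splotch null and a median of -0.030. The alternative ATPase Smarca2, or BRM, had the lowest unadjusted p of them at 0.20. It had 11.15, 11.47 and 11.07 in Splotch null and 11.72, 11.56 and 11.18 in wild type, a difference of -0.26 (SE 0.18). The scaffold Smarcc2 differed by -0.15 (SE 0.13) and Smarcd1 by 0.16 (SE 0.15). Actl6b, the actin-like subunit of neurons, stayed at background on all 6 arrays.

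Of the 14 ISWI factors, 7 were higher and 7 lower, with a median of 0.0039. Smarca1, the ATPase partner of Cecr2, had 9.94, 9.64 and 10.47 in Splotch null and 9.94, 9.97 and 9.52 in wild type. Splotch null 3 set its difference of 0.21 (SE 0.24), which was -0.021 without that array. Baz1a differed by -0.20 (SE 0.21) and the histone-fold protein Pole3 by -0.11 (SE 0.13). The Pole3 difference was 0.10 when the probes of the gene were averaged.

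Among the BET proteins, Brd3, another reader of acetylated histones, had 13.20, 12.99 and 13.47 in Splotch null and 13.42, 12.95 and 13.20 in wild type. The genotypes overlapped, and the difference was 0.029 (SE 0.18). Brdt, the testis BET protein, stayed at background on all 6 arrays.

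In the SAGA and ATAC list, 10 of 18 tested genes were higher and 8 lower, with a median of 0.0089. The largest difference among them was that of Taf12, a histone-fold subunit shared with TFIID, at 0.29 (SE 0.19). It was 0.16 without Splotch null 1 and also without wild type 1, and 0.45 without Splotch null 3. Zzz3 and Wdr5 differed by -0.12 (SE 0.16) and -0.11 (SE 0.14). Kat2b, the close relative of Kat2a, was above background on too few arrays to be tested.

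The CBP and p300 list held the largest differences, with 6 of 14 tested genes higher, 8 lower and a median of -0.020. The 3 AP-2 factors for which Cited2 is a coactivator were all lower in Splotch null, and none passed the adjusted threshold. Tfap2c had 8.72, 8.74 and 8.75 in Splotch null and 9.79, 9.41 and 9.31 in wild type, a difference of -0.77 (SE 0.15). Tfap2b had 8.64, 8.48 and 8.88 in Splotch null and 9.19, 9.06 and 8.91 in wild type, a difference of -0.39 (SE 0.15). Their genotypes did not overlap, as in 5.11% of all genes with a value on every array. Tfap2c and Tfap2b are the 2 genes of the lists with an unadjusted p under 0.05. Tfap2a differed by -0.16 (SE 0.13). AP-2 genes also mark neural crest and surface ectoderm. The 8 crest markers, which include Tfap2b, had mean levels of 8.50 to 8.56 in Splotch null and 8.72 to 8.83 in wild type, and the 7 tested surface ectoderm genes, which include Tfap2c, had 9.69 to 10.15 in Splotch null and 10.13 to 10.43 in wild type. Their part in the AP-2 values was not tested.

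Of the 11 PRC2 genes 6 were higher and 5 lower, with a median of 0.048. The methyltransferase Ezh2 had 11.23, 11.04 and 11.90 in Splotch null and 11.26, 11.26 and 11.10 in wild type. Its difference of 0.19 (SE 0.22) was -0.070 without Splotch null 3, the array on which its partner Jarid2 was also highest. Phf1 differed by 0.21 (SE 0.18), with wild type 3 left out because its spot was unusable, and Phf19 by 0.13 (SE 0.15).

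Among deacetylases and co-repressors, which oppose the acetyltransferases, 10 of 16 tested genes were higher and 6 lower, with a median of 0.021. The tubulin deacetylase Hdac6 differed by 0.36 (SE 0.22) and Sin3b, a co-repressor scaffold, by -0.24 (SE 0.13). Hdac6 was 0.20 without Splotch null 3, 0.18 without wild type 3 and 0.53 without Splotch null 2, and Sin3b was -0.15 without Splotch null 2. Hdac10 had 8.05, 8.01 and 7.91 in Splotch null and 7.88, 7.80 and 7.73 in wild type, with no overlap and a difference of 0.19 (SE 0.11, unadjusted p = 0.15).

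**Figure D5:**
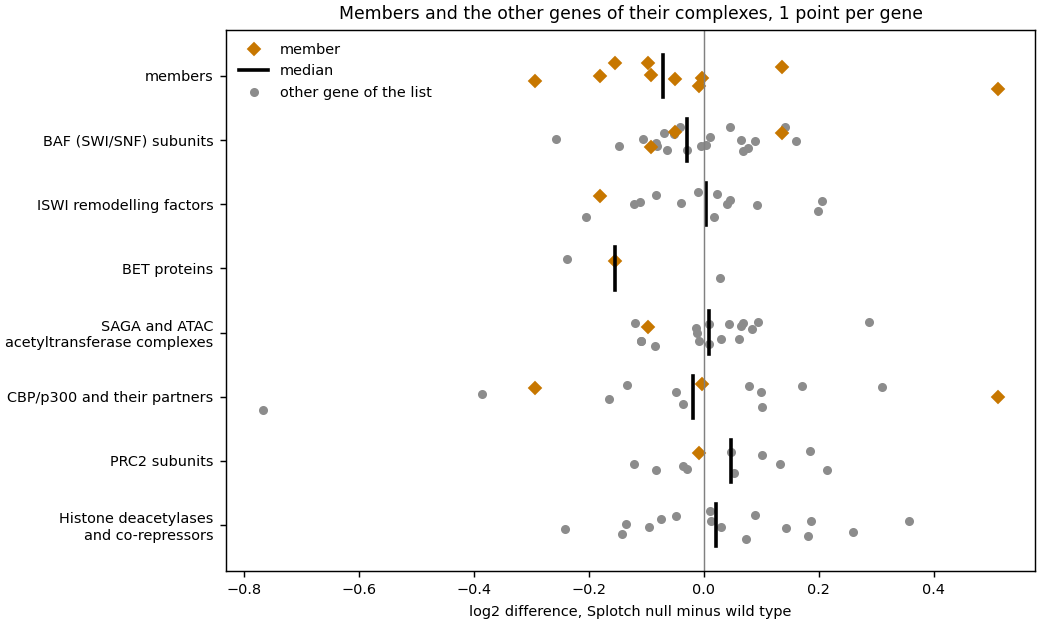
Log2 difference of Splotch null minus wild type for each tested gene of the members and of 7 lists of related genes, with members as orange diamonds, other genes as grey points and the median of each list as a bar. Points are spread vertically only so that they can be seen. Medians lie between -0.15 for the 3 tested BET proteins and 0.048 for PRC2, and the outermost points are Tfap2c at -0.77 and Cited2 at 0.51.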

How the data were processed

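RNA of 3 Splotch null and 3 wild-type samples was measured on 1 array each; groups came from the genotype labels, and replicates were numbered in accession order, which pairs nothing. Per the file headers, the authors' reports were made with CodeLink Expression Analysis 5.0.0.31312 and hold a background-subtracted raw intensity and that intensity divided by the array median; how background was set is not stated there. The authors' deposited value table holds rescaled intensity on a linear scale and served as an alternative.

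Spots flagged good, near background or saturated were kept. Raw intensity was floored at 0.0119, and 50 was added before log2 and quantile normalization of 34967 probes. Probes above background on at least 3 of 6 arrays, with 2 usable values per genotype, numbered 24434. The test was that of limma (version 3.58.1, under R 4.3.3, with lmFit and eBayes), with Benjamini-Hochberg adjustment. A gene was represented by its brightest probe. Offsets understate differences of dim genes. The procedure was run on simulated data with independent noise and with changes larger than any member difference. That run does not show whether differences of the size seen here could be detected.

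Probes were named from GEO's platform annotation, updated by gene identifier (21487 probes), kept as they stood (128) or named by report accession (536); no name was used for the 681 with several symbols and the 12135 without one. Promoters came from RefSeq, with a whole chromosome left out of the counts over all promoters. The members, lists and tests were chosen with earlier results of these data known. Named genes were all members, the 3 non-member genes with the smallest p per list, and the 5 genes closest to the most variable member; Actl6b, Brdt, Kat2b and the markers were named from their lists. Some genes that this rule names are not reported here. The 19 alternatives covered normalization, starting values, offset, filter, variance model, array weights, probe choice, array brightness and each array left out. Control spots were not used. Figures were drawn with matplotlib 3.10.9.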

Additional observations from a re-analysis of the deposited data

How the results depend on the processing

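No paired analysis was possible because the labels give the samples no shared replicate numbers. Over the 19 alternatives, 0 genes and 0 member probes passed the adjusted threshold in limma. Member probes with an unadjusted p under 0.05 numbered 0, except for 1 without Splotch null 2 (Ep300), 1 without wild type 1 (Cited2) and 2 with array weights. The count of genes with an unadjusted p under 0.05, 204 as reported, ran from 116 without wild type 2 to 673 with array brightness as covariate, and was 2799 with array weights, whose estimation stopped before convergence. With array weights 2 members, Cited2 at 0.81 and Ep300 at -0.48, had an unadjusted p under 0.05, and their adjusted p were 0.12 each. Between 5 and 8 of the members were lower in Splotch null, and their median difference lay between -0.18, without Splotch null 3 or the 2 brightest arrays, and 0.00047, without Splotch null 2. Leaving out each array moved the list medians, from -0.17 to 0.11 for ISWI, from -0.27 to -0.037 for BET, from -0.049 to 0.13 for deacetylases and co-repressors, from -0.078 to 0.035 for BAF, from -0.042 to 0.067 for SAGA and ATAC, from -0.084 to 0.0084 for CBP and p300 and from -0.097 to 0.10 for PRC2.

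Signs turned for members close to 0. Jarid2 was 0.012 with array brightness as covariate, and Crebbp was 0.00046 in the authors' value table, 0.0015 at an offset of 10 and 0.058 with array weights. With arrays left out in turn, Jarid2 ran from -0.16 to 0.10, Crebbp from -0.19 to 0.16, Smarcc1 from -0.20 to 0.092, and Smarca4 from -0.020 to 0.23 for the brighter and from -0.27 to 0.11 for the dimmer probe. Cecr2, Brd2, Kat2a, Ep300, Arid1a and Cited2 kept their direction in every alternative that gave them a value; the filter on all 6 arrays gave none for Ep300. Among the other genes, Pole3 was 0.011 with array weights and 0.10 with probes averaged, and Ezh2 was -0.0024 with array weights and -0.043 without the 2 brightest arrays. With arrays left out, Ezh2 ran from -0.070 to 0.36, Smarca1 from -0.021 to 0.39, Brd3 from -0.097 to 0.14, Wdr5 from -0.17 to 0.00092, Zzz3 from -0.24 to 0.00016 and Phf19 from -0.0076 to 0.23. Without a change of sign, Smarca2 ran from -0.41 to -0.14, Smarcc2 from -0.24 to -0.077, Smarcd1 from 0.078 to 0.29, Baz1a from -0.40 to -0.062, Tfap2a from -0.24 to -0.098 and Phf1 from 0.12 to 0.35. These causes were not tested. The number of arrays and the low signal of Ep300 and of the dimmer Smarca4 probe limit the precision.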

Other observations

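The spread between arrays was larger in Splotch null than in wild type for 7 of the 10 members, among them Brd2 (SD 0.24 in Splotch null and 0.011 in wild type) and Smarcc1 (SD 0.29 in Splotch null and 0.030 in wild type). This held for 59.8% of all genes with a value on every array. It was the other way round for Crebbp, Arid1a and Cited2. With 3 arrays per genotype an SD is loosely set, and the difference in spread was not tested.

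Mean levels of the related lists followed the same arrays in part. These means include members, among them Cecr2 in ISWI, Brd2 in BET and Jarid2 in PRC2, so likeness to the members is partly built in. Rbbp4 and Rbbp7 stand in both the ISWI and the PRC2 list. The ISWI factors had mean log2 intensities of 10.53, 10.48 and 10.88 in Splotch null and 10.78, 10.59 and 10.56 in wild type, and the BET proteins had 11.77, 11.55 and 12.05 in Splotch null and 11.99, 11.79 and 11.95 in wild type. Both lists were lowest on Splotch null 2 and highest on Splotch null 3. The same order held for PRC2, with 10.35 on Splotch null 2, 10.66 on Splotch null 3 and 10.42 to 10.61 in wild type, and for deacetylases and co-repressors, with 9.77 on Splotch null 2, 10.09 on Splotch null 3 and 9.84 to 9.97 in wild type. The BAF subunits stayed within 10.84 to 10.93 in Splotch null and 10.82 to 10.95 in wild type. Over the 6 arrays the order did not hold for BAF, for CBP and p300 or for SAGA and ATAC. The CBP and p300 list had 9.32 on Splotch null 2 and 9.28 on Splotch null 3. It was lowest on Splotch null 1 and highest on wild type 1, at 9.41. The SAGA and ATAC list was lowest on wild type 2 and highest on wild type 3, at 10.02, with 9.98 on Splotch null 2.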
